A study of Arabidopsis thaliana with 4 samples.

Results

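OX7 is a single Arabidopsis thaliana plant of the first transgenic generation (T1) that carried the wheat kinase TaSK5 driven by the 35S promoter, which comes from a plant virus and is active in nearly all tissues. RNA of its rosette leaves was set against RNA of wild-type Columbia (Col-0) leaves, which lacked the transgene and shared the Col-0 background. Both genotypes were sampled at 3 weeks of age, and plants grew at 22 °C with 16 h of light and 8 h of dark. OX7 accounted for 2 of the 4 Agilent 2-colour arrays of the series, and an independent transformant, OX17, accounted for the other 2. Each array carried OX7 and wild-type RNA together. OX7 RNA was labelled with Cy5 on array 1 and with Cy3 on array 2, and wild-type RNA with the other dye. The arrays were therefore repeat hybridisations of 1 plant, and every SD given below covers only the spread between 2 arrays. No test across plants was possible, and no p-value is given. The labels do not say whether wild-type RNA came from a single plant or was the same for OX7 and OX17. Transgene expression was not analysed here. A bulk leaf sample cannot tell fewer cells of a type from less RNA per cell.

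TaSK5 belongs to the GSK3/Shaggy-like kinases, a family that phosphorylates transcription factors and other regulators. Its best-known Arabidopsis member, BIN2, represses brassinosteroid signalling by phosphorylating BZR1 and BES1, and brassinosteroids reduce its activity. Members of the family have also been linked to abscisic acid (ABA) signalling and to salt and drought responses, and leaves answer wounding and herbivores through jasmonate, a hormone perceived by COI1 that releases MYC transcription factors from JAZ repressors.

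Of 21500 gene probes, 19154 were well above background in both OX7 channels or in both wild-type channels, and 18973 remained after 181 with an outlier flag were left out. The share of probes well above background was 86.4% and 92.6% for OX7 RNA, against 88.9% and 96.0% for wild-type RNA. Intensities below are fluorescence units after background correction with 50 added and after loess normalisation, and each ratio is OX7 over wild type on the log2 scale, so that 1 is a 2-fold difference. The number of arrays limits the precision. Each array was a separate slide with its own scan, so slide, scan and dye orientation cannot be told apart, but both genotypes lay on every slide. The absolute difference between the arrays' ratios had a median of 0.15 over all genes and was below 0.48 for 95% of them.

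In OX7, 92 genes were at least 2-fold higher than in wild type on both arrays, which is 0.485% of the genes measured, and 18 genes were at least 2-fold lower on both, which is 0.0949%. At 1.5-fold on both arrays, 279 genes (1.47%) were higher and 84 (0.443%) were lower. Higher ratios thus made up 83.6% of the 2-fold calls with loess normalisation. With each array only centred on its median, 56 genes were higher and 37 lower. At 3-fold on both arrays 19 genes were higher and 2 lower, and at 4-fold 8 were higher and none was lower. Taken singly, array 1 had 116 genes at least 2-fold higher and 25 lower, and array 2 had 123 higher and 31 lower. Genes past 1.5-fold in favour of a dye, and so in opposite directions for OX7, numbered 0. Over all genes the arrays' ratios had the same sign for 61.1%, with Pearson's r of 0.58 across genes as a description. With the genes split by brightness into 3 equal bins, r was 0.20 in the dimmest bin, 0.65 in the middle bin and 0.75 in the brightest. The dimmest bin held 4 of the higher and 2 of the lower calls, and the brightest held 60 and 11. The 1.5-fold shares over all genes, 1.47% higher and 0.443% lower, stand beside the gene list counts below. Those lists were chosen with earlier results of these data known, so their counts are descriptions only.

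**Figure D1:**
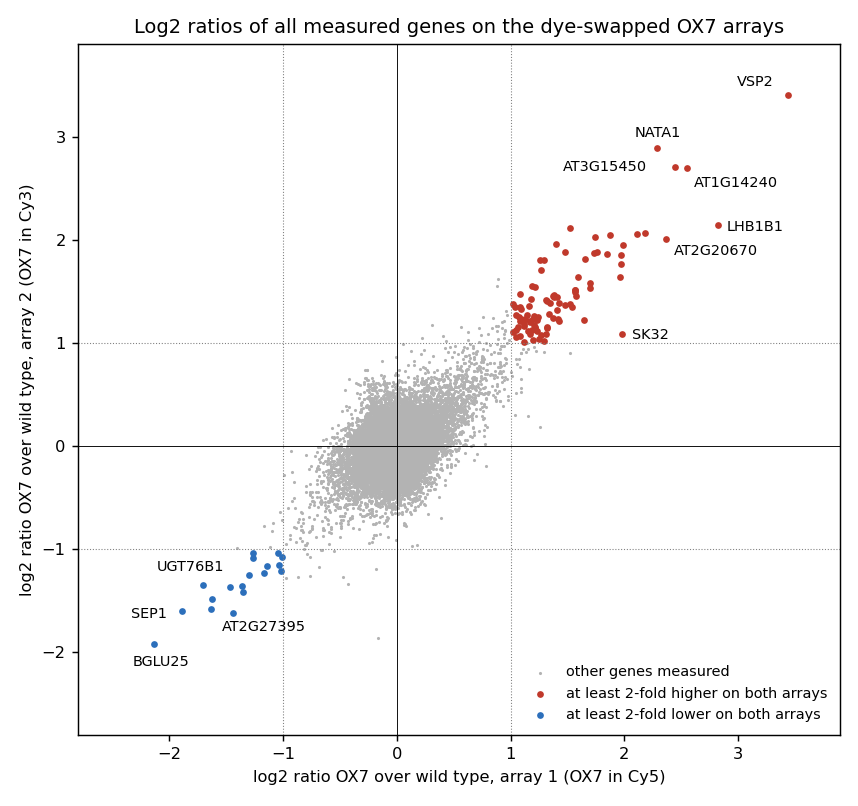
Log2 ratio of OX7 over wild type on array 1 (horizontal axis, OX7 in Cy5) and on array 2 (vertical axis, OX7 in Cy3), with 1 point for each of the 18973 genes measured. The 92 genes higher on both arrays (red) lie at the upper right, led by VSP2 at 3.44 and 3.41, and the 18 lower ones (blue) at the lower left, led by BGLU25 at -2.13 and -1.92.

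The highest ratio of all measured genes was that of VSP2 (AT5G24770), a vegetative storage protein of leaves that jasmonate and wounding induce. Its intensity was 3107 and 4278 in the OX7 channels, against 287 and 403 in the wild-type channels. Both OX7 values lay far above both wild-type values, a mean log2 ratio of 3.42 ± 0.02 (SD, n = 2 arrays), or 10.7-fold. VSP1 (AT5G24780), a related storage protein encoded near it, had 355 and 405 in OX7, against 114 and 173 in wild type, a log2 ratio of 1.44 ± 0.30. NATA1 (AT2G39030), an acetyltransferase that makes acetylornithine, read 934 and 1950 in OX7 and 192 and 264 in wild type, with log2 ratios of 2.28 and 2.89. CORI3 (AT4G23600), a cystine lyase induced by the jasmonate mimic coronatine, was 2.61-fold higher, with log2 ratios of 1.22 and 1.55. These were the 4 of 8 measured jasmonate output genes that were at least 1.5-fold higher on both arrays, against 1.47% of all genes, and none was 1.5-fold lower. This list too was chosen with earlier results of these data known, so that contrast is no independent support. The other 4 members passed 1.5-fold neither way. PDF1.2 lay below wild type, with log2 ratios of -0.23 and -0.65. TAT3 had -0.21 and 0.05, THI2.1 had 0.17 and 0.08, and LAP1 had 0.29 and 0.18. The list had a median log2 ratio of 0.81, against -0.003 over all genes measured, and of 0.55 with outlier-flagged spots kept. In OX17 the 4 higher genes had log2 ratios of 2.17 and 2.41 for VSP2, 0.64 and 0.18 for VSP1, 2.32 and 2.71 for NATA1, and 2.71 and 3.23 for CORI3.

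Genes that make jasmonate were higher in part. LOX2 (AT3G45140), the lipoxygenase of the first plastid step, read 22917 and 41021 in OX7, against 10175 and 17647 in wild type, a log2 ratio of 1.19 ± 0.03. LOX3 had log2 ratios of 0.88 and 0.99, and AOS, the allene oxide synthase that acts after the lipoxygenases, had 0.82 and 0.70. With these 3, 3 of 10 measured synthesis genes were at least 1.5-fold higher, against 1.47% of all genes, and none was lower. The list median was 0.27, with 0.16 on array 1 alone and 0.39 on array 2 alone. Among 15 signalling and turnover genes, 3 were higher and none lower, at a median of 0.26 (0.18 with median centring). JAZ1, a repressor that jasmonate itself induces, was 2.32-fold higher, with log2 ratios of 1.09 and 1.33. MYC2, the transcription factor that JAZ proteins hold back, had 0.94 and 1.09, and JAZ5 had 0.59 and 0.81. TIFY10B (JAZ2) had 0.78 and 0.57, its second array just under 1.5-fold. Outside these lists, JRG21 (AT3G55970), an oxygenase that inactivates jasmonic acid by hydroxylation, was higher with 1.57 and 1.51, and the ERF transcription factor ORA47 (AT1G74930), known as an activator of jasmonate synthesis genes, with 1.19 and 1.55.

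ER bodies are endoplasmic reticulum compartments that store beta-glucosidases for defence. Of 14 measured genes of their list, 4 were at least 1.5-fold higher, against 1.47% of all genes. None was lower, and the list median was 0.17. That median was 0.33 with median centring and 0.32 both without the added offset and with Agilent's processed ratio. BGLU18 (AT1G52400), the ER-body beta-glucosidase of wounded leaves that also releases ABA from its glucose ester, read 1312 and 1972 in OX7, against 335 and 545 in wild type, a log2 ratio of 1.91 ± 0.08. The jacalin lectin JAL23 (AT2G39330) had 639 and 903 in OX7, against 212 and 289 in wild type, or 3.07-fold higher. PYK10 (AT3G09260), the beta-glucosidase of root and seedling ER bodies, was dim, with 242 and 275 in OX7 against 92 and 110 in wild type, and its log2 ratio was 1.36 ± 0.06. JR1, a jasmonate-induced jacalin lectin, had log2 ratios of 1.18 and 1.42. TSA1 (AT1G52410), which lies beside BGLU18 and was no member of the list, had 1.57 and 1.49. In OX17 the log2 ratios were 2.04 and 1.95 for BGLU18, 2.18 and 2.24 for JAL23, and 2.47 and 2.31 for PYK10.

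Nitrilases turn nitriles into acids and ammonia. NIT2 (AT3G44300), which acts on indole-3-acetonitrile, read 961 and 1629 in OX7, against 212 and 388 in wild type, 4.37-fold higher. NIT4, which acts on the cyanide product cyanoalanine, went the other way, with 999 and 1168 in OX7, against 1965 and 2261 in wild type, a log2 ratio of -0.96 ± 0.02. These were the 2 of 4 nitrilases at least 1.5-fold apart from wild type. Their list median was 0.19 with loess and -0.10 with median centring, and was 0.28 on array 1 alone and 0.11 on array 2 alone. In OX17, NIT2 had log2 ratios of 1.88 and 1.81 and NIT4 had 1.21 and 1.35.

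Glucosinolates are the sulfur-rich defence compounds of this plant family, and myrosinases split them when tissue is damaged. Both myrosinases of leaves were higher in OX7. TGG2 (AT5G25980) read 3377 and 4851 in OX7, against 1076 and 1375 in wild type, a log2 ratio of 1.73 ± 0.12. TGG1 (AT5G26000) read 5835 and 7394 in OX7, against 2522 and 3085 in wild type, a log2 ratio of 1.24 ± 0.04. ESM1 and ESP, which steer the products of that reaction, had log2 ratios of 0.79 and 0.74, and of 0.68 and 0.67. The nitrile specifier NSP1, no member of the list, had a mean of 1.19 ± 0.02. TGG1, TGG2, ESM1 and ESP were the 4 of 21 measured members at least 1.5-fold higher, against 1.47% of all genes. Only 1, the chain-elongation enzyme IMS2 (MAM3), was at least 1.5-fold lower, with -0.82 and -0.70, against 0.443% of all genes. Other synthesis genes and their regulators lay on both sides of wild type. MYB34 had -0.51 and -0.32, SOT17 had -0.37 and -0.27, and FMO GS-OX1 had -0.29 and -0.40. CYP79B2 had 0.74 and 0.42, and MAM1 had 0.10 and 0.17. The list median was -0.01 with loess, -0.29 with median centring and -0.17 with outlier-flagged spots kept, and was -0.08 on array 1 alone and 0.05 on array 2 alone.

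ABA accumulates in drying leaves and induces dehydrins and other protective proteins. Of 28 measured genes of the ABA and dehydration response, 11 were at least 1.5-fold higher on both arrays, against 1.47% of all genes. Of these 11, 6 were at least 2-fold higher, and no member was 1.5-fold lower. The list median was 0.49 (0.79 with Agilent's processed ratio). NAC019 (AT1G52890), a NAC transcription factor of drought and jasmonate responses, read 1320 and 2321 in OX7, against 367 and 638 in wild type, a log2 ratio of 1.86 ± 0.01. Its relative RD26 (AT4G27410) read 1427 and 3533 in OX7, against 543 and 907 in wild type, with a wider spread of 1.68 ± 0.40. RD20 (AT2G33380), a caleosin of lipid bodies, was among the brighter genes, with 8163 and 10370 in OX7 against 2803 and 4079 in wild type, 2.72-fold higher. GolS1, which starts the synthesis of raffinose sugars, had log2 ratios of 1.52 and 1.38, the dehydrin RAB18 had 1.16 and 1.35, and the cold-induced KIN2 had 1.11 and 1.01. Other members lay near or below wild type: RD29A (LTI78) had 0.02 and 0.38, KIN1 had 0.01 and 0.09, and the second galactinol synthase GolS2 had -0.49 and -0.09.

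Genes that make, break or sense ABA differed less. Of 26 measured, 3 were at least 1.5-fold higher and none was lower, with a median of 0.11 that became -0.02 with median centring. The median was 0.004 on array 1 alone and 0.10 on array 2 alone. The phosphatase HAI1, a target and brake of ABA signalling, had log2 ratios of 0.91 and 0.98. NCED3, which catalyses the rate-limiting step of ABA synthesis under drought, had a log2 ratio of 0.86 ± 0.34 and read 152 and 285 in OX7 against 99 and 133 in wild type. CYP707A3, which degrades ABA, was still dimmer, with 128 and 153 in OX7 against 67 and 99 in wild type, and log2 ratios of 0.92 and 0.62. Its wild-type channel was well above background on only 1 of the 2 arrays, so these ratios are not exact. Genes this dim lie close to the 50 units added to every channel, which shrinks their ratios.

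Genes known to respond to darkness, sugar starvation and senescence included several of the highest ratios. AT3G15450, a gene of the dark and sugar starvation list, read 1860 and 4048 in OX7, against 342 and 621 in wild type, a log2 ratio of 2.57 ± 0.18. SEN1 (AT4G35770), induced in darkened and senescing leaves, read 1813 and 2467 in OX7, against 560 and 849 in wild type, 3.07-fold higher. ASN1 (AT3G47340), the dark-induced asparagine synthetase, was dim, with 223 and 326 in OX7 against 80 and 89 in wild type, and its log2 ratio was 1.68 ± 0.28. The transcription factor bZIP1, which acts in the low-energy response, had log2 ratios of 1.32 and 1.15, and TPS8, a trehalose phosphate synthase homologue, had 1.11 and 1.17. In all, 7 of 19 measured members were at least 1.5-fold higher, against 1.47% of all genes, and none was lower, at a median of 0.57. In the senescence and chlorophyll breakdown list, 3 of 16 were higher and none lower, at a median of 0.36 with loess and 0.16 with median centring. Besides SEN1 these were the transcription factor WRKY53 (AT4G23810), with log2 ratios of 1.43 and 1.39, and SAG13 (AT2G29350), with 1.23 and 1.12.

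Several other genes among the 24 highest belonged to none of the lists. AT1G14240, a member of the apyrase family, read 1053 and 2169 in OX7, against 180 and 333 in wild type, 6.18-fold higher. AT2G20670 read 6206 and 10194 in OX7, against 1202 and 2537 in wild type, a log2 ratio of 2.19 ± 0.26. AT5G19120 had log2 ratios of 2.11 and 2.06, AT3G07350 had 1.99 and 1.95, AT1G49500 had 1.87 and 2.04, and AT1G36280 had 1.74 and 2.03. Enzymes and carriers in this set were KCS12, a fatty acid elongase of cuticular lipids (1.52 and 2.12), PMT6, a polyol and monosaccharide transporter (1.96 and 1.64), and ELI3-2, an elicitor-activated alcohol dehydrogenase (1.70 and 1.58). The zinc finger protein ATCTH had 1.74 and 1.87, ZW9 had 1.97 and 1.77, and AT5G39520 had 1.76 and 1.89. The arrays of KCS12 lay furthest apart, and those of AT3G07350 and AT5G19120 nearly coincided.

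**Figure D2:**
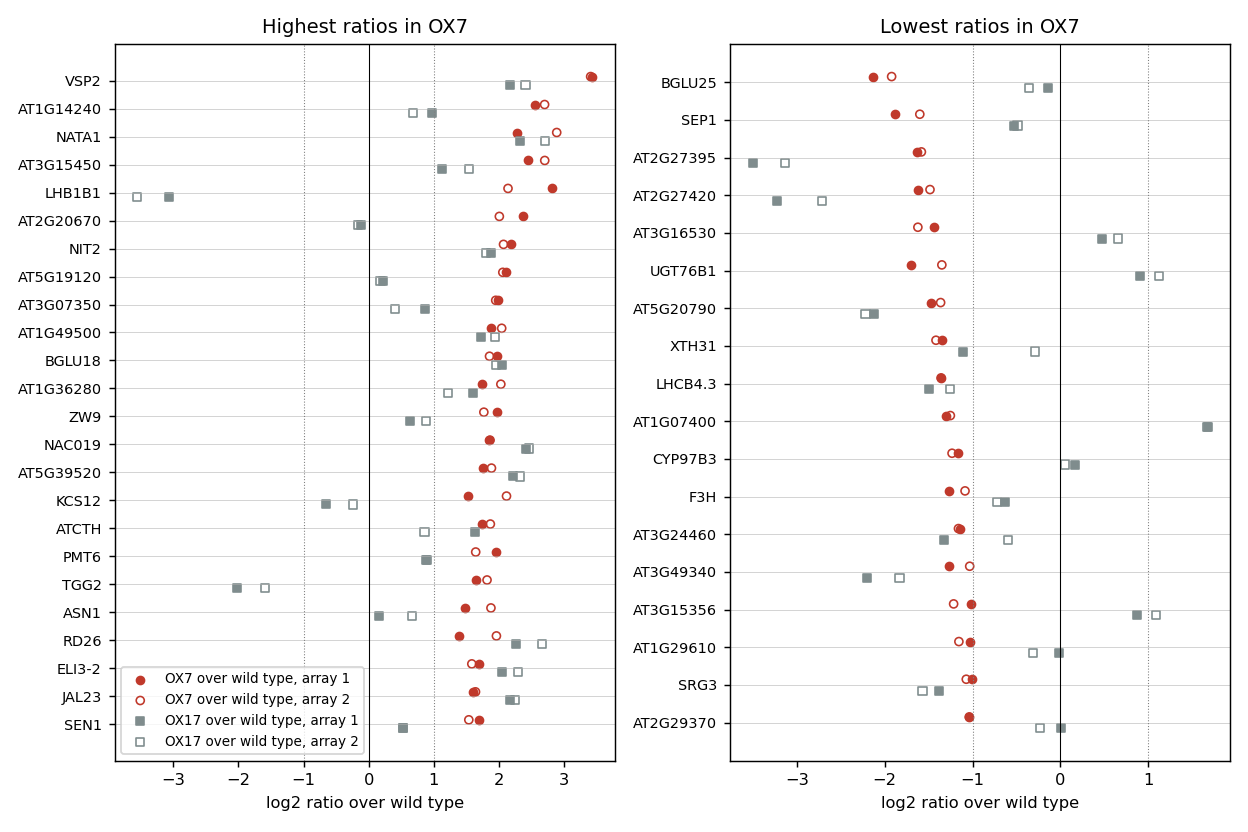
Log2 ratios over wild type of the 24 genes with the highest ratios (left) and the 18 with the lowest (right), ordered by the OX7 mean. Red circles are the OX7 arrays and grey squares the OX17 arrays, filled for array 1 and open for array 2. VSP2, NATA1, NIT2 and BGLU18 lie on the same side of 0 in both transformants, LHB1B1 and TGG2 on opposite sides.

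Among the remaining genes at least 2-fold higher, mean log2 ratios lay between 1.05 and 1.55. They held carbon and nitrogen genes outside the lists, here chosen after their values were seen. The glucose and proton symporter STP1 had log2 ratios of 1.38 and 1.46, the cytosolic fumarase FUM2 had 1.24 and 1.25, the beta-amylase BAM5 had 1.37 and 1.24, and the arginase ARGAH2 had 1.02 and 1.11. PORB, which makes chlorophyllide in the light, had 1.37 and 1.46, and the alternative oxidase AOX1D had 1.21 and 1.15. The stress-related transcription factor WRKY75 had 1.15 and 1.12, and the flowering repressors RAV2 and TEM1 had 1.42 and 1.23, and 1.17 and 1.08. Just inside the 2-fold limit lay KIN2 and AT3G28220 (1.29 and 1.02), and just outside it lay GRP3S (1.15 and 0.998) and GASA6 (0.99 and 1.03).

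Light-harvesting genes need care, because the brightest spots of the arrays were saturated. Of the genes measured, 28 had a saturated channel on an OX7 array, and 12 of these were saturated in both channels of an array. Where both channels were saturated on both arrays, as for RBCS1A, RCA and PSBR, the computed log2 ratio was the same, 0.75 on array 1 and 0.85 on array 2, and no ratio was measured. None of the 2-fold calls had a saturated channel, but 17 of the 279 genes at least 1.5-fold higher did. The light-harvesting and photosynthesis list had a median of 0.63 over 28 measured members (0.37 with median centring, 0.41 in the authors' deposited table), and a median of 0.19 over the 12 without a saturated channel, of which 3 were at least 1.5-fold higher and 2 lower. LHB1B1 (AT2G34430), a major chlorophyll-binding protein of the photosystem II antenna, read 63710 and 84410 in OX7, against 9005 and 19150 in wild type, a log2 ratio of 2.48 ± 0.48. No channel of LHB1B1 was flagged as saturated, but its second OX7 value came near the 87411 at which RBCS1A was saturated there. LHCB2.3 (AT3G27690), an antenna protein of the same complex, read 21415 and 31464 in OX7, against 8576 and 11896 in wild type, 2.57-fold higher. The third higher member was LHCB4.2, with log2 ratios of 0.66 and 0.59. LHCB4.3 (AT2G40100), a variant of the minor antenna protein CP29, read 635 and 812 in OX7, against 1629 and 2083 in wild type, a log2 ratio of -1.36 on both arrays. ELIP2, an early light-induced protein, had a log2 ratio of -0.96 ± 0.19. Antenna genes form families of near-identical copies, and probe sequences were not used here, so signal from a copy cannot be told from that of the named gene.

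**Figure D3:**
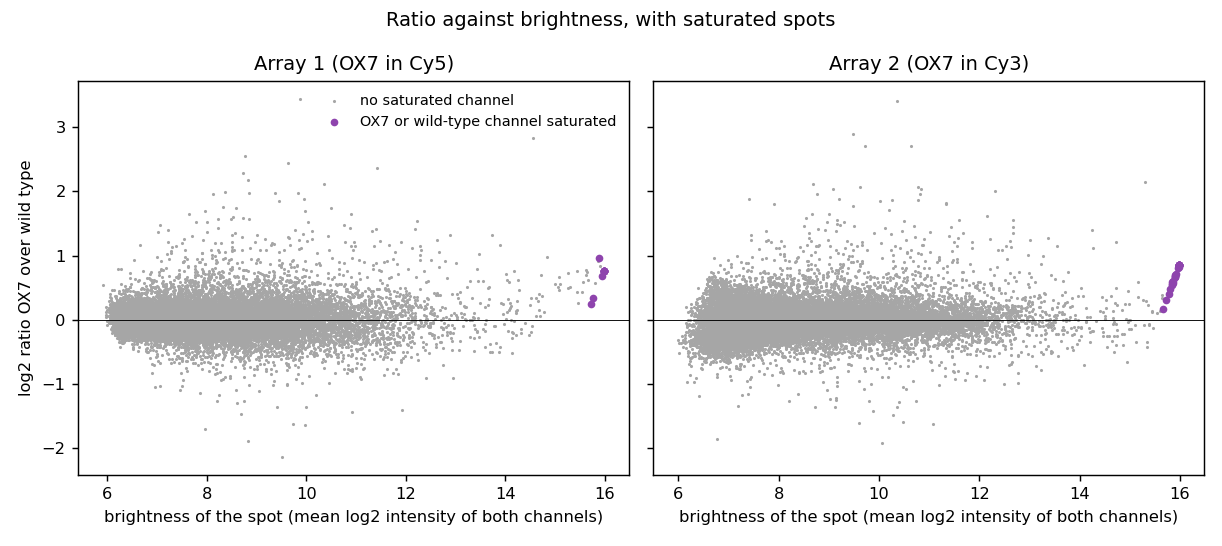
Log2 ratio of OX7 over wild type against spot brightness (mean log2 intensity of both channels) on each OX7 array, for all genes measured. Purple points have a saturated OX7 or wild-type channel on that array, and those saturated in both channels sit at 0.75 on array 1 and 0.85 on array 2.

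The lowest ratio of all was that of BGLU25 (AT3G03640), a beta-glucosidase, with 349 and 550 in OX7 against 1530 and 2084 in wild type, a log2 ratio of -2.03 ± 0.15, or 4.08-fold lower. SEP1 (AT5G15800), a MADS-box transcription factor of floral organs, read 237 and 445 in OX7, against 878 and 1349 in wild type, 3.35-fold lower. Among 7 floral organ genes it was the only one at least 1.5-fold apart on both arrays. SEP3 had log2 ratios of -0.54 and -0.52, AP1 had -0.03 and -0.41, and PI, whose OX7 channel was well above background on 1 of the 2 arrays, had -0.06 and -0.50. AP3 had 0.15 and 0.13, AG had 0.07 and 0.07, and SEP2 had 0.15 and 0.34. The median of the floral genes was -0.22 with loess and 0.08 with median centring, and was -0.03 on array 1 alone and -0.41 on array 2 alone. Also lower were 3 genes of papain-like cysteine proteases: AT2G27395 had 572 and 818 in OX7 against 1773 and 2453 in wild type, AT2G27420 had 486 and 740 in OX7 against 1495 and 2073 in wild type, and AT3G49340 had log2 ratios of -1.26 and -1.03. AT2G27395 and AT2G27420 have locus numbers close to each other, and whether their probes share signal was not tested. The other 8 measured proteases of that list were within 1.5-fold on at least 1 array, and the list median was 0.05 with loess, -0.09 with median centring, 0.10 on array 1 alone and -0.08 on array 2 alone.

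Phosphate starvation genes were lower in part. Of 19 measured, 4 were at least 1.5-fold lower and none was higher, against 0.443% lower over all genes. The list was chosen with earlier results of these data known, so that contrast is no independent support. The list median was -0.25 (-0.42 with median centring, -0.39 on array 2 alone). AT5G20790 read 248 and 349 in OX7, against 687 and 899 in wild type, a log2 ratio of -1.42 ± 0.08. SRG3 (AT3G02040), a phosphodiesterase that frees glycerol phosphate from lipids, had log2 ratios of -1.01 and -1.07 and lay just inside the 2-fold limit. SPX1, an inositol pyrophosphate sensor that restrains the starvation response, had -0.79 and -1.05, and the phosphatase PEPC1 had -1.03 and -0.64. The sulfolipid genes SQD1 and SQD2 had -0.48 and -0.41, and -0.55 and -0.39, while the transporters PHT1;1 (-0.09 and -0.003) and PHT1;4 (0.16 and 0.09) were near 0.

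Heat shock genes were at least 1.5-fold lower in 3 of 15 measured members, against 0.443% of all genes. None was higher, and the list median was -0.26. That median was -0.58 with Agilent's processed ratio, -0.46 without the added offset, -0.41 with median centring and -0.39 on array 2 alone. AT1G07400, a small heat shock protein, read 248 and 365 in OX7, against 611 and 870 in wild type, 2.42-fold lower. The chaperone HSP90.1 had log2 ratios of -0.79 and -0.94, and the disaggregase HSP101 had -0.77 and -0.83. HSP70 (AT3G12580) had -0.58 and -0.80, its first array just under 1.5-fold. In OX17 these genes were higher than in wild type, with 1.68 and 1.67 for AT1G07400, 2.19 and 2.29 for HSP90.1, and 1.02 and 0.93 for HSP101.

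Flavonoid genes were split. The transcription factor PAP1 (AT1G56650), an activator of anthocyanin synthesis, had 344 and 618 in OX7 against 168 and 243 in wild type, a log2 ratio of 1.19 ± 0.22. Lower were 2 enzymes of the shared upstream pathway: F3H, a flavanone hydroxylase, had log2 ratios of -1.26 and -1.09, and TT4, the chalcone synthase, had -0.94 and -0.90. The other 13 of 16 measured members did not pass 1.5-fold on both arrays, and the list median was 0.01, with 0.09 on array 1 alone and -0.04 on array 2 alone. In OX17, PAP1 had log2 ratios of 3.07 and 3.05, F3H had -0.63 and -0.72, and TT4 had -1.85 and -1.30.

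The remaining genes at least 2-fold lower were scattered in function. The lectins AT3G16530 and AT3G15356 had log2 ratios of -1.44 and -1.62, and of -1.02 and -1.22. UGT76B1 (AT3G11340), a transferase that glucosylates isoleucic acid and salicylic acid, read 139 and 265 in OX7, against 453 and 676 in wild type, 2.88-fold lower. XTH31, a wall-modifying enzyme, had log2 ratios of -1.35 and -1.42, and CYP97B3, a cytochrome P450, had -1.17 and -1.23. AT3G24460 (-1.14 and -1.16), AT1G29610 (-1.03 and -1.16) and AT2G29370 (-1.05 and -1.04) completed the set. Just outside the limit lay cPT4 (-1.41 and -0.99) and UMAMIT17 (-0.98 and -1.27).

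Since the transgene encodes a GSK3/Shaggy-like kinase, the Arabidopsis members of that family and brassinosteroid genes were examined. All 10 kinases were measured, and 1 was at least 1.5-fold apart from wild type. SK32 (AT4G00720) read 1810 and 2314 in OX7, against 460 and 1087 in wild type, a log2 ratio of 1.53 ± 0.63. Its array values of 1.98 and 1.09 differed by 0.89, the largest gap between arrays among the 110 genes called at 2-fold. BIN2 had 738 and 728 in OX7, against 643 and 662 in wild type, a log2 ratio of 0.17 ± 0.04. BIL2 (GSK1 in the reference table, AT1G06390) had log2 ratios of 0.27 and 0.04, BIL1 (SKdZeta, AT2G30980) had 0.01 and 0.08, and AT3G61160 (SK31 in the list) had 0.16 and 0.01. SK11 had 0.17 and 0.13, ATSK12 had -0.23 and -0.30, SK13 had -0.30 and -0.16, SK42 had -0.12 and -0.26, and SK41 had 0.29 and -0.21. Whether the SK32 probe takes signal from the wheat transcript was not tested. The median of the kinases was 0.06 with loess and -0.07 with median centring, and was 0.16 on array 1 alone and 0.02 on array 2 alone.

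Of 15 brassinosteroid synthesis and signalling genes, 1 was at least 1.5-fold higher and none was lower, at a median of -0.05 that was 0.07 on array 2 alone. DWF1 (AT3G19820), a reductase of sterol synthesis, read 1159 and 2051 in OX7, against 614 and 1255 in wild type, a log2 ratio of 0.81 ± 0.15. CPD and DWF4, synthesis enzymes that brassinosteroid signalling represses, had log2 ratios of 0.43 and 0.26, and of -0.13 and 0.01. The receptor BRI1 had 0.17 and 0.15, and the transcription factors BZR1 and BES1 had -0.21 and -0.06, and -0.11 and 0.22. None of 12 measured brassinosteroid-induced growth genes was 1.5-fold apart on both arrays, and their median was -0.04 (-0.11 with median centring). None of 9 salt and proton transport genes was either, with means between -0.21 and 0.19. No interval between plants could be had from 1 plant, so these values do not show that the genes were unchanged.

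The 15 cold and early stress transcription factors and touch genes included 5 at least 1.5-fold higher, against 1.47% of all genes. None was lower, and the list median was 0.46. TCH4 (AT5G57560), a touch-induced xyloglucan-modifying enzyme, read 730 and 1199 in OX7, against 244 and 438 in wild type, a log2 ratio of 1.52 ± 0.09. ERF5 had log2 ratios of 0.76 and 0.95, WRKY40 had 0.71 and 0.92, the zinc finger STZ had 0.67 and 0.95 and its relative ZF2 had 0.69 and 0.89. The list median in OX17 was -0.99. TCH4 had -2.53 and -2.38 there, and STZ had -2.02 and -2.12.

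**Figure D4:**
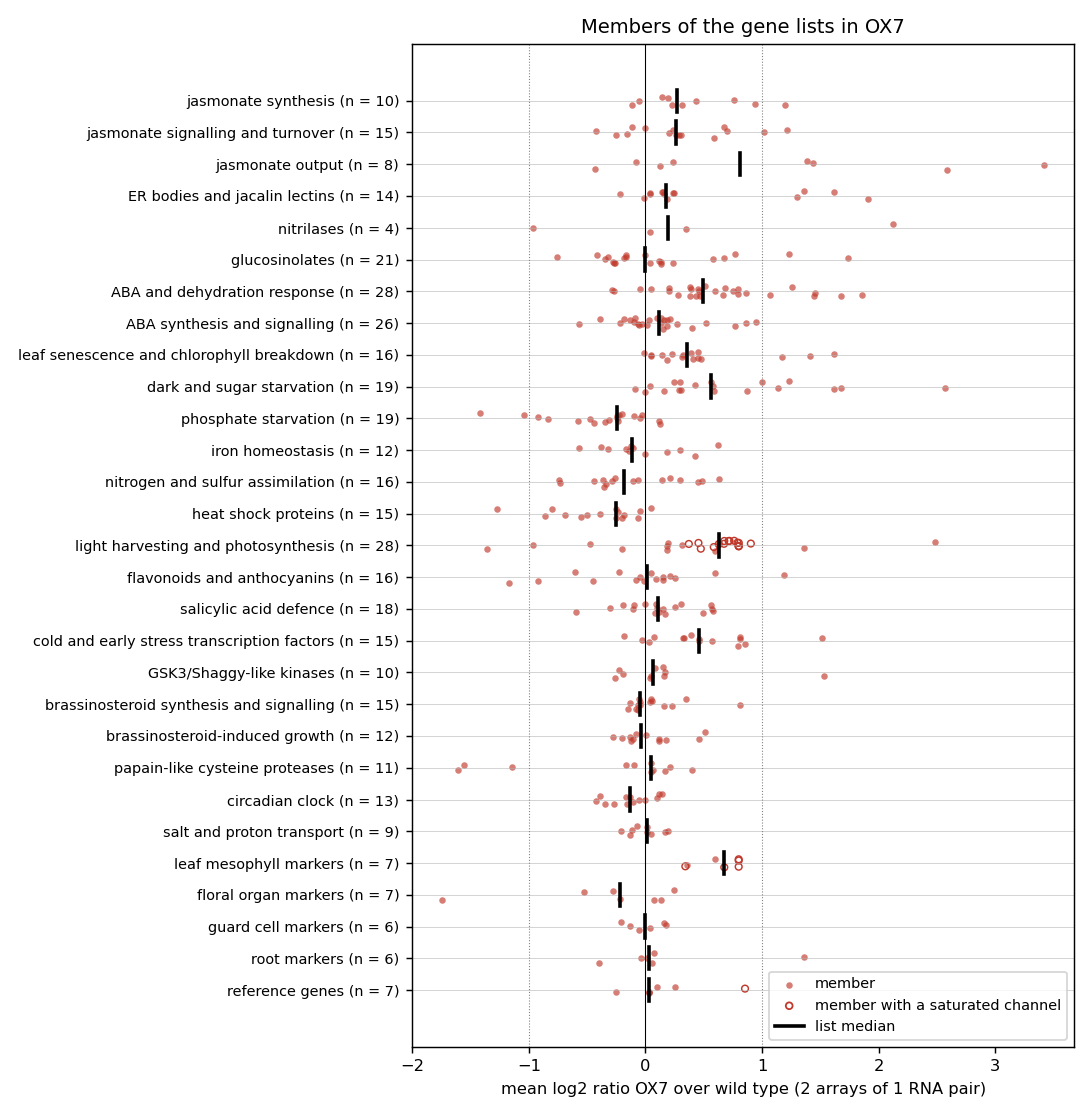
Mean log2 ratio of OX7 over wild type (horizontal axis) of each measured member of the gene lists, with the number measured in brackets and the list median as a black bar. Open circles are members with a saturated channel, which gather between 0.34 and 0.90 in the photosynthesis, mesophyll and reference lists. Jasmonate output and ABA response genes spread to the right, and phosphate starvation and heat shock genes to the left.

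Salicylic acid defence genes numbered 18, of which none was 1.5-fold apart on both arrays, at a median of 0.11 that became -0.02 with median centring. The median was 0.005 on array 1 alone and 0.23 on array 2 alone. PR5 had log2 ratios of 0.57 and 0.58 and NIMIN1 had -0.67 and -0.52. In OX17 the median of these genes was 1.05. The circadian clock list of 13 measured genes also held none past 1.5-fold, with means between -0.42 and 0.14.

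Marker genes of leaf and other tissues were also examined. Ratios between leaf samples cannot check the labelled tissue, on which only the intensities bear. Of the floral organ genes described above, SEP1 read 878 and 1349 in wild type, where the median over all measured genes was 218.5 and 371.9. Other floral genes read below those medians in wild type. SEP3 had 154.7 and 256.5 there, AP1 had 79.6 and 199, PI had 76.9 and 141.4, and SEP2 had 69.2 and 98.7. Of 7 leaf mesophyll markers all were measured, and 5 had a saturated channel. CAB1 (LHCB1.3) read 130 on array 1 and 4881 on array 2 in OX7, against 105 and 2666 in wild type, a gap between arrays whose cause was not tested. The 2 mesophyll markers without saturation had a median log2 ratio of 0.48, and none of them was 1.5-fold higher on both arrays. None of 6 guard cell markers was 1.5-fold apart, at a median of -0.01 that was -0.16 on array 1 alone and 0.10 on array 2 alone. Among 6 measured root markers PYK10 alone passed 1.5-fold, and 3 of 5 seed markers, among them the storage protein CRA1, were not well above background. Among 7 measured reference genes the median was 0.03 with loess and -0.09 with median centring, and the 1 past 1.5-fold, UBQ10, had a saturated channel.

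Set beside OX17, genes called in OX7 lay on the same side of wild type in some cases and on the other side in others. VSP2, NATA1, NIT2, BGLU18 and NAC019 were at least 2-fold higher on every array of both transformants, with 1.85 and 1.86 in OX7 against 2.41 and 2.47 in OX17 for NAC019. Other genes had opposite signs. LHB1B1 had 2.82 and 2.14 in OX7, against -3.07 and -3.55 in OX17. AT2G10940 had 1.32 and 1.16 in OX7, against -4.01 and -4.18 in OX17. TGG2 had 1.65 and 1.82 in OX7, against -2.03 and -1.60 in OX17, and TGG1 had 1.21 and 1.26 in OX7, against -2.91 and -2.68 in OX17. That no OX7 array of these 4 genes overlapped an OX17 array follows from their opposite signs. Other genes lay higher in both transformants but further from wild type in OX17, among them RD20 with 1.54 and 1.35 in OX7 against 3.31 and 3.16 in OX17, and AT2G34810 with 1.27 and 1.71 in OX7 against 3.17 and 3.40 in OX17. BGLU25 had -2.13 and -1.92 in OX7 against -0.14 and -0.35 in OX17. With 1 plant of each transformant, the difference between them was not tested. The log2 ratios of all genes had SDs of 0.25 and 0.27 on the OX7 arrays and 0.53 and 0.52 on the OX17 arrays.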

How the data were processed

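Rosette leaf RNA of OX7 and wild type was profiled on 2 dye-swapped Agilent arrays, from 500 ng of RNA per the labels. Spots were read with Agilent Feature Extraction 7.5.1 per the file headers, and the deposited scanner files give each spot's intensity and local background in both channels, its flags and the program's log10 ratio. A table of log2 ratios was also deposited by the authors, made with limma per the submitters' processing notes. How its background was corrected and how it was normalised is not given in the sources used here. Against the scanner values that table ran as log2 Cy5 over Cy3 (r of 0.992 and 0.993 with the ratios computed here), with column medians of -0.00408 and 0.00358.

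Mean intensities were corrected by normexp with an offset of 50 and normalised within each array by loess with 1075 control spots at weight 0 (limma 3.58.1, R 4.3.3), and ratios were turned to OX7 over wild type. Since loess sets the typical ratio to 0 along the whole range of brightness, a general shift of transcript levels stays hidden. Saturated spots were kept. Every locus had 1 probe. Symbols came from the RefSeq table of assembly TAIR10.1, which held 21191 of the loci. The 309 loci not in it, and those without a symbol there, kept the file's locus name. The scanner files name no genome build, so no coordinates are given.

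No statistical test was run. A gene was called where both arrays passed 2-fold the same way, and list members were counted at 1.5-fold. The processing and counting were also run on simulated arrays with known changes, placed only in spots neither dim nor saturated. That run does not bear on changes in dim or saturated spots. Members and lists were chosen with earlier results of these data known. Named by rule were the 24 highest and up to 24 lowest called genes, and up to 5 members per list of largest ratio and 1 sign on both arrays. All GSK3/Shaggy-like kinases were named too. So were the 8 largest and 8 smallest differences from OX17, among called genes whose OX7 arrays did not overlap the OX17 arrays. The rule also took the 4 largest towards each dye, of which there were none. Other genes were named after their values were seen. Alternatives were other background corrections, normalisations, filters, thresholds and each array alone.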

Additional observations from a re-analysis of the deposited data

Results flagged for a closer look

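In 19 genes chosen by the naming rule, both OX7 arrays lay at least 1.5-fold to one side of wild type and both OX17 arrays at least 1.5-fold to the other side. The rule named 170 genes, some of them for their difference from OX17. The number 19 therefore does not show how often the transformants differed. The differences below are mean log2 ratios, OX7 minus OX17, and with 1 plant each they were not tested.

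Higher in OX7 and lower in OX17 were 13 genes. Photosynthesis genes had the difference of 5.79 for LHB1B1 and of 3.86 for LHCB2.3, and AT2G10940 had 5.33. The myrosinases TGG1 and TGG2 differed by 4.03 and 3.55. Of the cold and early stress list, TCH4 differed by 3.97, STZ by 2.88 and ERF5 by 2.09. ORA47 with 4.55, AT4G29780 with 3.94 and BT5 with 3.68 were in no list. DWF1 of sterol synthesis differed by 2.31, and CYP707A3 of ABA breakdown by 2.08, a value that is not exact because its wild-type channel was well above background on only 1 of the 2 OX7 arrays.

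Lower in OX7 and higher in OX17 were 6 genes. The heat shock genes HSP90.1, AT1G07400 and HSP101 had differences of -3.10, -2.95 and -1.77. UGT76B1 had -2.54, NIT4 had -2.25, and the lectin gene AT3G15356 had -2.10. Groups of 2 arrays allowed no search for single arrays that stand apart.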

How the results depend on the processing

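Of the 92 higher and 18 lower genes, normexp with an offset of 0 gave 120 and 31, no background correction 78 and 11, median centring in place of loess 56 and 37, and Agilent's processed log ratio 147 and 35. These shared 91 and 18, 77 and 11, 52 and 16, and 91 and 18 with the reported genes. A 1.5-fold threshold gave 279 and 84, and a 3-fold threshold 19 and 2. Either array alone gave 116 to 123 higher and 25 to 31 lower genes. Counts were within 1.5 times of the reported ones with an offset of 16 (107 and 24), the authors' deposited table (88 and 17), flagged spots kept (94 and 18), saturated spots left out (an alternative added after seeing the data, 92 and 18), no filter on dim probes (92 and 18) and a filter on all 4 channels (92 and 18). The cause of these shifts was not tested.

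None of 780 alternative values of the 65 called genes chosen by the naming rule changed direction. Many of these values could not change direction. The filters on spots left them as they were, and a call already needs the same direction on each array alone. The largest move of a called gene was 1.41 on the log2 scale, with Agilent's processed log ratio. The other called genes are not in that number. Under median centring 9 of these genes had a mean below 2-fold, and without background correction 3 did. Medians kept their sign in 20 of 29 lists under median centring, in 23 without array 1, in 28 without array 2, and in 28 or 29 under every other alternative tried. No paired analysis was possible because replicate numbers mark dye orientation, OX7 and wild type lie on the same arrays, and no test was run. Low signal over background limits the dimmest genes, and saturation the brightest photosynthesis genes.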

Other observations

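Some called genes lay close together. Among the 109 genes called at 2-fold that have a place in the reference table, 6 pairs lay at most 3 gene places apart, and 5 of these pairs went the same way. How many such pairs genes drawn from all those measured would give was not computed. Since 83.6% of the 2-fold calls were higher, most pairs of called genes share a direction in any case. The 5 pairs that went the same way were BGLU18 with TSA1, VSP2 with VSP1, TGG2 with TGG1, TI1 with AT2G43530, and AT5G21940 with AT5G21960. TI1, a trypsin inhibitor, had log2 ratios of 1.19 and 1.12, and AT2G43530 had 1.14 and 1.27. AT5G21940 had 1.41 and 1.45, and AT5G21960, an ERF transcription factor, had 1.13 and 1.23. The pair that went opposite ways was SAG13, with a mean of 1.18, and AT2G29370, with -1.04. Several pairs are related genes, and signal shared between their probes was not tested.

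Iron and nutrient genes were mostly near wild type. Of 12 measured iron homeostasis genes the iron store FER1 alone passed 1.5-fold, with log2 ratios of 0.66 and 0.59, at a list median of -0.11 that was -0.06 on array 1 alone and -0.001 on array 2 alone. Of 16 nitrogen and sulfur assimilation genes the repressor LBD38 had 0.66 and 0.59, and LSU2, a gene induced by sulfur shortage, had -0.84 and -0.64. The median of that list was -0.19, with -0.36 under median centring and -0.10 on array 1 alone.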
